A study of Mus musculus with 36 samples.

Results

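Class I antigen processing and presentation was followed through 8 genes: the immunoproteasome subunits Psmb8, Psmb9 and Psmb10, the peptide transporter subunits Tap1 and Tap2, tapasin (Tapbp), beta-2-microglobulin (B2m) and the non-classical class I heavy chain H2-M3. They were chosen by symbol: every probe set that the array annotation assigns to one of these names was taken. This gave 13 of the 22690 probe sets and 8 of the 12394 genes that have a probe set of their own. None of the 8 genes was lost to the filter on dim probe sets, and the probe set that stands for each lay above the array median on all 24 microglia arrays and on all 12 BV-2 arrays.

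MHC class I molecules display peptides from a cell's own proteins to CD8 T cells. Proteasomes cut the proteins, the Tap1-Tap2 transporter moves the peptides into the endoplasmic reticulum, and tapasin holds an empty class I molecule (a heavy chain with beta-2-microglobulin) beside the transporter until a peptide is bound. Interferons raise many of these genes through JAK-STAT signalling, and the induced subunits Psmb8, Psmb9 and Psmb10 take the places of the constitutive subunits Psmb5, Psmb6 and Psmb7 to form the immunoproteasome. Usp18 limits signalling at the type I interferon receptor and is also a protease that removes the ubiquitin-like modifier ISG15 from proteins. Microglia, the resident macrophages of the brain, are among the cells in which Usp18 is known to restrain interferon signalling.

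The 36 arrays formed 18 groups of 2 biological replicates, as the labels name them. Primary mouse microglia were wild type (WT), carried a Usp18 knockout (KO) or carried USP18_C61A, in which the catalytic cysteine of Usp18 is replaced by alanine. BV-2 cells, a mouse microglial line immortalized by oncogenes, were given a control siRNA or an siRNA against Usp18. Cells were left untreated (0 h) or were given 500 U/ml IFN-b, a type I interferon, for 6 h or 24 h, and all groups were grown in the same serum-containing medium. WT microglia occur in 2 runs of the deposition order, one beside the KO arrays (the KO run) and one beside the C61A arrays (the C61A run), and each mutant was set against the WT arrays of its own run. The labels do not say what these runs are, and the sources used here name neither the age and strain of the mice nor the exact knockout allele. BV-2 cells are a single line, so their replicates do not cover differences between animals.

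The targeted gene was read on every array. Usp18 measured 3.77 to 6.42 (log2 intensity) on the 6 KO arrays, while WT arrays of the KO run rose from 5.68 and 5.99 at 0 h to 12.56 and 12.41 at 6 h. The array labelled untreated WT replicate 1 of the C61A run went against its label, with Usp18 at 12.97 against 9.31 on the other replicate. C61A 6 h replicate 2 was low for its group, at 10.71 against 13.04 on the other replicate. It lay just above untreated C61A replicate 1, at 10.48, but well above untreated C61A replicate 2, at 8.51, which carries its own number. Likeness was read over all genes tested but the 8. The untreated WT array was most like WT 6 h replicate 2 of its run (r = 0.972, against 0.916 with its own replicate). The C61A 6 h array was most like WT 6 h replicate 1 (0.963, against 0.896). An exchange of labels between arrays of the C61A run was not tested. In BV-2 cells Usp18 read 7.92 and 9.0 with its siRNA and 8.38 and 8.59 with control siRNA at 0 h, and 11.07 and 11.48 against 11.51 and 11.73 at 24 h. The differences did not pass (-0.02 ± 0.45 at 0 h and -0.34 ± 0.45 at 24 h, adjusted p = 0.632 for the latter), so a lowering of Usp18 RNA was not shown on these arrays. The BV-2 array labelled Usp18 siRNA 6 h replicate 2 carried genes of primary microglia (C1qa at 9.96, where the median of the BV-2 arrays was 4.10). These 3, called here the arrays that stand apart, were kept under the labels they carry. Many of the test results that rest on them are also given without them. Among those given only with them are the orders of the groups, the correlations over group means, the fits with a replicate block and the WT changes of other pathway genes. The microglia arrays among them were picked by Usp18, which itself rises with interferon. Leaving them out can therefore enlarge the response of genes that move with Usp18 and narrow the spread, so those fits are no independent check.

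The identity of the cells was read from marker lists. All 13 microglial markers on the array passed the filter in the microglia fit and 10 of them did in the BV-2 fit. All 13 but Tmem119 (12 arrays) and P2ry12 (18 arrays) lay above the array median on all 24 microglia arrays. On the 12 BV-2 arrays Csf1r, Tyrobp, Aif1, Itgam, Trem2 and Cd68 did so on all and C1qb on 8. Tmem119 did so on 4, Cx3cr1 on 3 and C1qc on 2, and C1qa, P2ry12 and Fcrls on 1 each. Astrocyte markers had a mean log2 level of 4.89 to 6.01 over the KO run and of 5.84 to 9.13 over the C61A run. Of 7 oligodendrocyte markers 3 to 5 lay above the array median on each microglia array (mean level 6.25 to 7.43), Mbp, Cnp and Olig1 on all 24 and Mog and Mobp on none. Of 5 neuronal markers 0 to 2 did (mean level 3.37 to 4.81), with Syt1, Rbfox3 and Nefl on none. Of 6 fibroblast and endothelial markers 0 to 1 did on the KO-run arrays (mean level 3.87 to 4.52) and 0 to 4 on the C61A-run arrays (4.15 to 5.76). Their mean level was 4.27 and 5.76 on the untreated WT replicates 1 and 2 of the C61A run. Whole cultures were measured, so fewer cells of a type and less RNA per cell cannot be told apart.

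Of the 8 genes, 6 lie on mouse chromosome 17 and 4 of these are direct neighbours in the MHC region (RefSeq, GRCm38.p6): Psmb9 at chr17:34182030-34187330, Tap1 at chr17:34187556-34197225, Psmb8 at chr17:34198195-34201454 and Tap2 at chr17:34204479-34216321. Tapbp lies at chr17:33919478-33929290, H2-M3 at chr17:37270234-37274485, Psmb10 at chr8:105935728-105938392 and B2m at chr2:122147687-122153082. Psmb9 and Tap1 are read in opposite directions from starts 226 bases apart, so a single stretch of 225 bases lies before both genes. It is shown because it is common to both, and both were higher in untreated KO than in WT cells. The sequence is given on the Tap1 strand, 5′ to 3′, with a CCAAT match and a match to the GC box (GGGCGG, here as its reverse complement) in capitals.
Psmb9-Tap1 interval, chr17:34187331-34187555, plus strand: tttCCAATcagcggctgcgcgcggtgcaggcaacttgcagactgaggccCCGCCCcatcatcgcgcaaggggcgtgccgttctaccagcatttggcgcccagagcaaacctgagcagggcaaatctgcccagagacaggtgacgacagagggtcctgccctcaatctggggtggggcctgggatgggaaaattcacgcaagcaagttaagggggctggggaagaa

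The 250 bases before the start were searched on both strands in 7 of the 8 genes, the ones with a promoter in the RefSeq table (build GRCm38.p6), for 5 motifs. These were the core of the interferon-stimulated response element (ISRE) with the letters GAAANNGAAA, the core of the gamma-activated site (GAS) with the letters TTCNNNGAA, the CCAAT box, the GC box with the letters GGGCGG and the TATA box with the letters TATAAA. The same windows of 32851 promoters of 27025 genes served as the background. The ISRE core was found before B2m (1 of 7, against 2.98% of all promoters) and the GAS core before Psmb8 and H2-M3 (2 of 7, against 7.02%). The CCAAT box was found before 5 of 7 (33.8% of all), the GC box before 3 of 7 (32.7%) and the TATA box before 2 of 7 (12.4%). The CCAAT and GC box matches of Psmb9 and Tap1 are the same letters. No searched motif overlapped another. These matches are descriptions of letters in this window. The ISRE match ran from base 139 to base 130 before the B2m start, and the GAS matches from base 97 to 89 before Psmb8 and from base 209 to 201 before H2-M3. The stretches around these 3 matches are shown because they hold the interferon-related cores found among the 7 genes, with the core in capitals.
B2m, chr2:122147518-122147587, plus strand: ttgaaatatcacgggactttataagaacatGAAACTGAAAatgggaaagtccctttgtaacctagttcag
Psmb8, chr17:34198068-34198136, plus strand: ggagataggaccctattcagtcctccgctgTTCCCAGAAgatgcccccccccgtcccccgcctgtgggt
H2-M3, chr17:37269995-37270063, plus strand: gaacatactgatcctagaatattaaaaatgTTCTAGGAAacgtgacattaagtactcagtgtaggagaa

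Without interferon, all 8 genes were higher in KO than in WT microglia. Values are log2 intensities, changes are log2 differences ± SE from limma, and a gene is said to have risen or fallen where its p-value, adjusted by Benjamini-Hochberg over all genes tested, was under 0.05. All 8 rose between WT and KO, where 8% of the 7960 genes tested rose. The median change of the 8 was 2.20, against -0.10 over all genes. On no array did a KO value fall to the WT range for any of the 8, a separation upward that 25.5% of all genes showed with 2 arrays against 2.

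The immunoproteasome subunits carried large differences. Psmb8, which supplies the chymotrypsin-like site of the immunoproteasome, read 12.28 and 11.87 on the untreated KO arrays and 9.63 and 9.65 on the WT arrays of the same run. Psmb9, which replaces Psmb6, read 11.70 and 11.18 against 8.09 and 8.64. Psmb10, which replaces Psmb7, read 11.94 and 11.82 against 9.43 and 9.80. For each of the 3, both KO arrays lay well above both WT arrays, and the changes were 2.43 ± 0.39 for Psmb8 (adjusted p = 0.00147), 3.07 ± 0.56 for Psmb9 (adjusted p = 0.00353) and 2.26 ± 0.62 for Psmb10 (adjusted p = 0.0239).

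Of the transporter subunits, Tap1 showed the widest gap among the 8 genes, at 10.93 and 10.69 on KO arrays and 6.73 and 7.24 on WT arrays, a change of 3.82 ± 0.80 (adjusted p = 0.00668). Tap2, its partner in the same membrane complex, read 9.12 and 8.82 against 6.66 and 7.0 and rose by 2.14 ± 0.55 (adjusted p = 0.0190). Tapasin, which bridges the transporter and the class I molecule, read 12.32 and 12.26 against 10.48 and 10.52, a rise of 1.79 ± 0.41 (adjusted p = 0.0105). The 3 genes of the loading step thus stood apart between genotypes on every array.

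The chains of the class I molecule itself moved less. B2m read 13.32 and 13.38 on KO arrays against 12.76 and 12.97 on WT arrays, a change of 0.48 ± 0.15 (adjusted p = 0.0439). Its probe set was near the top of the intensity scale, with at most 0.450% of probe sets brighter on any microglia array, a range in which array signals can be compressed. H2-M3, which presents N-formylated peptides, read 10.42 and 10.38 against 9.18 and 8.85 and rose by 1.39 ± 0.31 (adjusted p = 0.00981). Without KO replicate 1, 1 of the 8 genes (Psmb8) still passed the test, without either WT array 3 passed, and without KO replicate 2 6 passed, all in the same direction. Psmb10 and B2m lost their calls whichever of the 4 arrays was left out. B2m lost it also without the filter on dim probe sets (adjusted p = 0.0581) and when every kept probe set was tested on its own (adjusted p = 0.0517).

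Markers of other cells also differed between these arrays. The list of granulocyte and monocyte markers, 3 of 4 on the array, had a mean log2 level of 5.58 and 4.92 on the untreated KO arrays against 4.23 and 4.17 on the WT arrays. Plac8 differed most of the 3, at 8.10 and 5.65 on KO arrays against 3.49 and 3.23, while S100a8 and S100a9 lay below the array median on all of these arrays. Astrocyte markers were at 4.89 and 5.98 in KO and 5.79 and 5.45 in WT, with 0 of 8 tested markers higher and 1 lower in KO. Of the 13 microglial markers 1 was higher and 2 were lower in KO, where 8% of all genes were higher and 8.78% lower, and their mean level was 10.78 and 11.06 in KO and 11.12 and 11.23 in WT. The part of these cells in the differences was not tested.

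**Figure D1:**
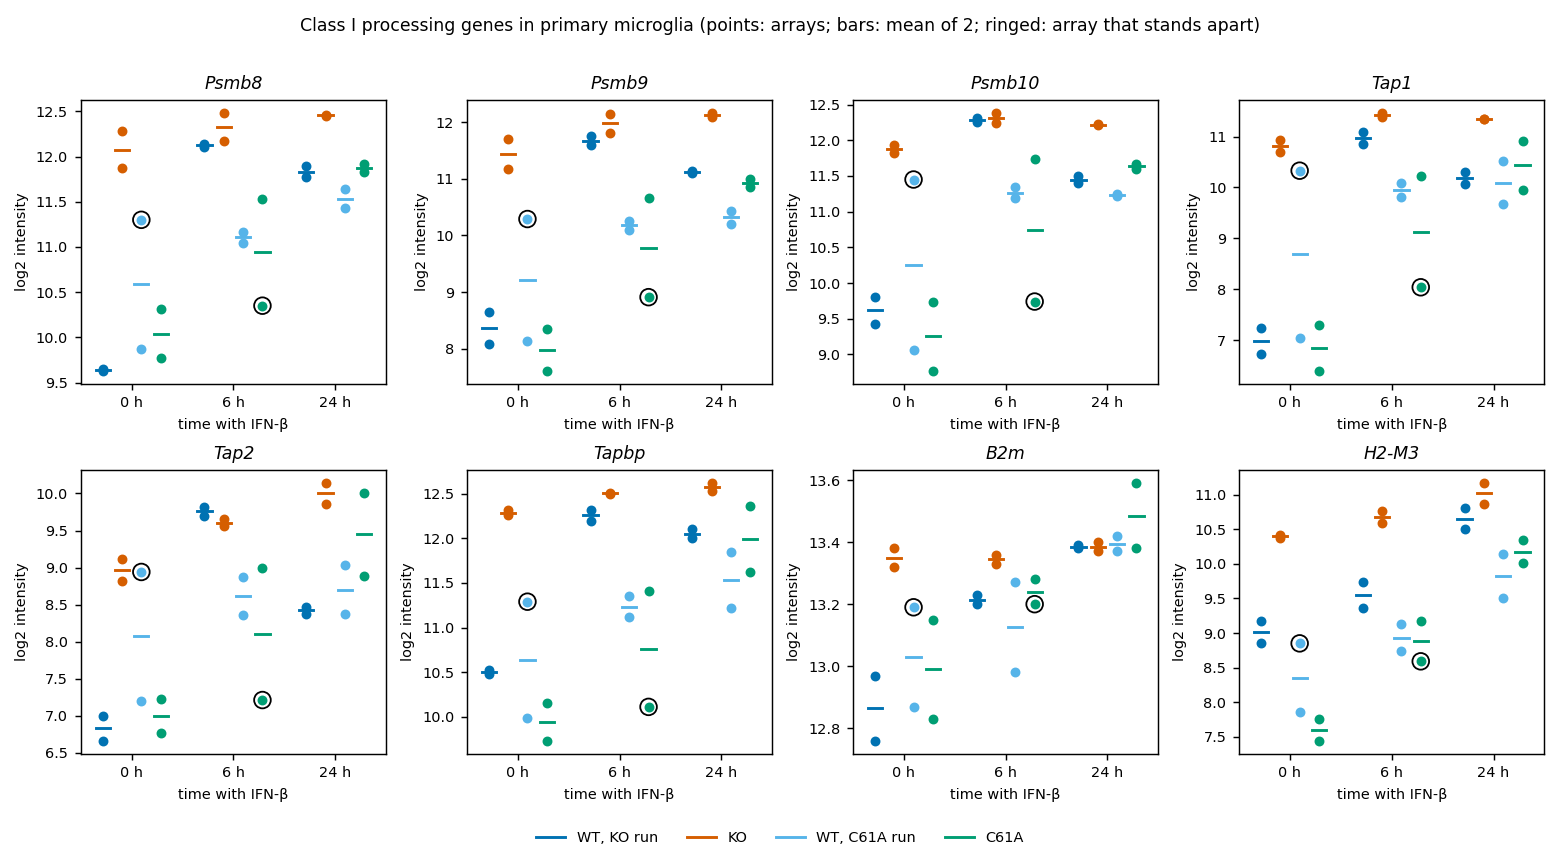
Log2 intensity of the 8 class I processing genes in primary microglia by time with IFN-b (0 h, 6 h, 24 h), for WT of the KO run, KO, WT of the C61A run and C61A. Each point is 1 array, each bar the mean of 2, and rings mark the 2 arrays that stand apart. Untreated KO arrays (Tap1 10.93 and 10.69) lie far above untreated WT arrays of their run (6.73 and 7.24) and near the WT arrays at 6 h (10.86 and 11.09).

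In WT microglia 6 h of IFN-b raised 6 of the 8 genes, taking the mean of both runs (7.59% of all genes rose), and the other two, B2m and H2-M3, did not pass. The median change of the 8 was 1.62, against -0.12 over all genes. With the arrays that stand apart left out 7 rose, H2-M3 among them at 0.80 ± 0.19 (adjusted p = 0.00909; 10.6% of all genes rose). Without the other untreated WT array of the C61A run, replicate 2, 3 rose (Psmb8, Psmb9 and Tap1). In the KO run the same 6 rose (10.8% of all genes), and every treated array lay above every untreated one for all 8 genes, as for 26.7% of all genes.

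Tap1 in the KO run went from 6.73 and 7.24 at 0 h to 10.86 and 11.09 at 6 h, a rise of 4.0 ± 0.80 (adjusted p = 0.00315). Psmb9 went from 8.09 and 8.64 to 11.75 and 11.60, by 3.31 ± 0.56 (adjusted p = 0.00128). Tap2 went from 6.66 and 7.0 to 9.70 and 9.82, by 2.93 ± 0.55 (adjusted p = 0.00233). These steps are of the size seen between untreated WT and KO cells. Psmb10 rose from 9.43 and 9.80 to 12.31 and 12.25, by 2.66 ± 0.62 (adjusted p = 0.00711). Psmb8 rose from 9.63 and 9.65 to 12.11 and 12.14, by 2.48 ± 0.39 (adjusted p = 0.00078), and Tapbp from 10.48 and 10.52 to 12.20 and 12.32, by 1.76 ± 0.41 (adjusted p = 0.00719).

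In the C61A run none of the 8 passed at 6 h against 0 h with all arrays in (limma; 0 at an unadjusted p under 0.05, and 0.0126% of all genes passed). There the untreated WT arrays disagreed with each other: Tap1 read 10.33 on replicate 1 and 7.04 on replicate 2, beside 9.81 and 10.09 at 6 h. Psmb10 read 11.45 and 9.06 at 0 h, beside 11.34 and 11.19 at 6 h. Replicate 1, the array with Usp18 at 12.97, lay above both 6 h arrays for each of the immunoproteasome and transporter genes. Without it 5 genes rose at 6 h (3.05% of all genes rose), among them Tap1 by 2.91 ± 0.43 (adjusted p = 0.0014), Psmb10 by 2.21 ± 0.29 (adjusted p = 0.000502), Psmb9 by 2.04 ± 0.31, Psmb8 by 1.24 ± 0.23 and Tapbp by 1.25 ± 0.30. The difference of the 6 h response between runs passed for none of the 8 (0.791% of all genes passed; 4 of the 8 at an unadjusted p under 0.05). Without C61A-run WT 0 h replicate 2 it passed for 5 of the 8, and without replicate 1 for none.

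After 24 h, 6 of the 8 had risen in the mean of both runs (2.02% of all genes rose), with a median of 1.48 against -0.03 over all genes. B2m had now risen, by 0.44 ± 0.11 (adjusted p = 0.0457), and H2-M3 by 1.56 ± 0.22 (adjusted p = 0.0018), while Psmb10 at 1.41 ± 0.44 and Tap2 at 1.11 ± 0.39 did not pass. All 8 rose without the arrays that stand apart (4.96% of all genes rose). Within the KO run 3 rose (Psmb8, Psmb9 and H2-M3; 1.63% of all genes), and within the C61A run none did (0.0754% of all genes passed; 4 of the 8 at an unadjusted p under 0.05), or 6 without the array that stands apart (2.52% of all genes rose). The difference of the 24 h response between runs passed for none (0% of all genes; 1 of the 8 at an unadjusted p under 0.05). The count of 6 rested on most of the 8 arrays. It was 2 without KO-run WT 0 h replicate 1, KO-run WT 24 h replicate 1 or 2, C61A-run WT 0 h replicate 2 or C61A-run WT 24 h replicate 1. It was 3 without KO-run WT 0 h replicate 2 or C61A-run WT 24 h replicate 2, and 8 without C61A-run WT 0 h replicate 1. Psmb8 and H2-M3 passed whichever array was left out.

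H2-M3 rose between 6 h and 24 h. In the KO run it read 9.18 and 8.85 at 0 h, 9.74 and 9.36 at 6 h and 10.81 and 10.50 at 24 h, and in the C61A run 9.13 and 8.74 at 6 h and 10.14 and 9.51 at 24 h. It was the only one of the 8 that rose between 6 h and 24 h in the mean of both runs, by 1.00 ± 0.22 (adjusted p = 0.0198; 3.42% of all genes rose), and the only one in the KO run, by 1.11 ± 0.31 (adjusted p = 0.0344; 6.19% of all genes rose). In the C61A run alone the step was 0.88 ± 0.31 and did not pass (adjusted p = 0.643). The call over both runs was lost without any one of KO-run WT 24 h replicates 1 and 2, KO-run WT 6 h replicate 2, C61A-run WT 24 h replicate 1 and C61A-run WT 6 h replicate 2. B2m did not pass between 6 h and 24 h. It read 13.20 to 13.23 at 6 h and 13.38 to 13.39 at 24 h in the KO run, and 12.98 to 13.27 and 13.37 to 13.42 in the C61A run. The KO-run means of the immunoproteasome and transporter genes were lower at 24 h than at 6 h. Tap2 read 8.37 and 8.47 after 9.70 and 9.82, and Psmb10 11.40 and 11.50 after 12.31 and 12.25. Those differences did not pass with all arrays in the fit (Tap2 -1.33 ± 0.55, adjusted p = 0.133). In the fit without the arrays that stand apart, none of which belongs to the KO run, 3 genes passed (16.6% of all genes passed): Tap2 fell by 1.33 ± 0.33 (adjusted p = 0.0147), Psmb10 fell by 0.83 ± 0.24 (adjusted p = 0.0303) and H2-M3 rose.

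WT replicate numbers correlated over time within each run, and they were taken to mark cultures followed over time. With culture as a random block, H2-M3 also passed at 6 h (adjusted p = 0.0114) and Psmb10 (adjusted p = 0.0210) and Tap2 (adjusted p = 0.0286) at 24 h, and the 6 h response was smaller in the C61A run for 3 genes, Psmb8, Psmb9 and Tap2 (adjusted p from 0.0197 to 0.0442). That fit kept C61A-run WT 0 h replicate 1, which lay above both 6 h arrays of its run for these 3 genes (Psmb8 11.30 against 11.17 and 11.04). The difference between runs therefore rests on that array, and no share of all genes is given for the blocked fit.

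KO microglia started high, and their response to interferon did not pass the test for any of the 8 genes. At 6 h against 0 h none passed in KO cells (limma; 0 at an unadjusted p under 0.05, where 8.45% of all genes passed after adjustment), and none passed at 24 h against 0 h (0 at an unadjusted p under 0.05, where 3.97% of all genes passed). Tap1 read 10.93 and 10.69 at 0 h, 11.46 and 11.38 at 6 h and 11.34 and 11.34 at 24 h. Psmb9 read 11.70 and 11.18, then 12.15 and 11.81, then 12.16 and 12.10. For both genes the treated KO arrays were a little above the untreated ones, by 0.53 ± 0.80 for Tap1 at 24 h (95% interval -1.18 to 2.24) and 0.69 ± 0.56 for Psmb9 (-0.51 to 1.90), and these intervals do not show that there was no rise. Tapbp read 12.32 and 12.26, then 12.51 and 12.50, then 12.53 and 12.62. Tap2 had the largest step, from 9.12 and 8.82 to 9.86 and 10.14 at 24 h (1.03 ± 0.55, adjusted p = 0.298), which passed in a fit on the arrays of the KO run alone (adjusted p = 0.0488). Both treated arrays lay above both untreated ones for 6 of the 8 genes at 6 h, all but Psmb8 and B2m (18% of all genes), and for 7 at 24 h, all but B2m (25.1% of all genes).

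Set beside WT cells that had received interferon, untreated KO cells did not pass the test for any of the 8 genes, either against WT at 6 h (0.251% of all genes passed; 1 of the 8, H2-M3, at an unadjusted p under 0.05) or against WT at 24 h (0.314% of all genes passed; 0 of the 8). The 95% interval of the difference from WT at 6 h ran from -1.88 to 1.54 for Tap1, from -0.88 to 0.78 for Psmb8 and from -0.84 to 0.91 for Tapbp. Their widths leave room for differences of more than 1 log2 unit in Tap1. The arrays did not overlap for 4 of the 8 genes: Psmb10 (-0.40 ± 0.62) and Tap2 (-0.79 ± 0.55) were lower on both untreated KO arrays, as 17.9% of all genes were, and B2m (0.13 ± 0.15) and H2-M3 (0.85 ± 0.31) were higher, as 20% of all genes were. Tap2 read 9.12 and 8.82 there against 9.70 and 9.82. H2-M3 read 10.42 and 10.38 on untreated KO arrays, above the 9.74 and 9.36 of WT at 6 h and below the 10.81 and 10.50 of WT at 24 h.

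The difference of the responses of KO and WT cells is the direct test, and it uses the same untreated arrays as the comparison without interferon. The KO response was smaller than the WT response for all 8 genes at both times, with values of -3.38 ± 1.13 for Tap1 and -2.77 ± 0.80 for Psmb9 at 6 h. With all arrays in the fit none of the 8 passed at 6 h (1.14% of all genes passed; 6 of the 8 at an unadjusted p under 0.05) or at 24 h (0.716%; 6 of the 8). Without the arrays that stand apart, which lie in the other runs and enter only through the estimate of the spread, 6 of the 8 passed at 6 h (3.73% of all genes were lower) and 4 at 24 h (2.03% were lower). In a fit on the arrays of the KO run alone the counts were 6 and 5, for which no share of all genes is given. In the former fit Tap1 had an adjusted p of 0.00133 at 6 h and 0.0122 at 24 h, and B2m and H2-M3 did not pass at either time.

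With interferon in both genotypes few of the 8 genes passed between KO and WT. At 6 h H2-M3 alone was higher in KO, at 10.77 and 10.60 against 9.74 and 9.36 (1.14 ± 0.31, adjusted p = 0.0382; 2.88% of all genes rose), a call that was lost without KO 6 h replicate 1, WT replicate 1 or WT replicate 2. At 24 h Tap2 alone passed, at 9.86 and 10.14 against 8.37 and 8.47 (1.57 ± 0.55, adjusted p = 0.0450; 11.3% of all genes rose), a call lost without any one of the 4 arrays and without the filter on dim probe sets (adjusted p = 0.0600). At 24 h 7 of the 8, all but B2m, had both KO arrays above both WT arrays, as 30.2% of all genes had. Without the arrays that stand apart 5 genes rose at 24 h (Psmb8, Psmb9, Psmb10, Tap1 and Tap2; 14% of all genes rose), with Tap1 at 1.15 ± 0.35 (adjusted p = 0.0246) and Psmb9 at 1.02 ± 0.25 (adjusted p = 0.00843). Granulocyte and monocyte markers were at 5.62 to 6.14 on the treated KO arrays and at 3.59 to 4.13 on the treated WT arrays. Plac8 differed most, at 7.81 to 9.53 against 3.67 to 4.10, while S100a8 and S100a9 lay below the array median on all of these arrays. Microglial markers had a mean level of 10.30 to 10.69 on the treated KO arrays and 11.04 to 11.27 on the treated WT arrays. The part of either list in these results was not tested.

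The C61A mutant, which keeps a Usp18 protein without its protease activity, did not carry the raised levels of untreated KO cells. Untreated C61A arrays read 7.30 and 6.4 for Tap1, 10.31 and 9.77 for Psmb8 and 9.74 and 8.77 for Psmb10. The WT arrays of that run read 10.33 and 7.04, 11.30 and 9.87, and 11.45 and 9.06. For each of these genes 1 C61A array lay below both WT arrays and the other between them, and none of the 8 genes passed at 0 h (0.0126% of all genes passed; 3 of the 8 at an unadjusted p under 0.05, all lower in C61A), at 6 h (0.0126% of all genes; 0 of the 8) or at 24 h (0.0251% of all genes; 0 of the 8). Without WT 0 h replicate 2, 2 of the 8 passed at 0 h. Without the arrays that stand apart, C61A and WT differed at 0 h by between -0.27 ± 0.30 (H2-M3) and 0.19 ± 0.29 (Psmb10).

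The KO effect and the C61A effect, each against its own WT arrays, differed at 0 h for 7 of the 8 genes (7.55% of all genes were higher in this difference), by 5.66 ± 1.13 for Tap1 (adjusted p = 0.00785), 4.32 ± 0.80 for Psmb9 (adjusted p = 0.00514) and 2.98 ± 0.55 for Psmb8 (adjusted p = 0.00508). Psmb10 (3.27 ± 0.87), Tap2 (3.21 ± 0.78), Tapbp (2.49 ± 0.58) and H2-M3 (2.15 ± 0.44) passed too, and B2m at 0.52 ± 0.22 did not (adjusted p = 0.124). Part of this difference comes from the untreated WT array that stands apart. When those that stand apart were left out the same 7 passed with smaller values, from 1.65 ± 0.38 for H2-M3 to 4.02 ± 0.56 for Tap1. With all others kept, leaving out KO 0 h replicate 1 or that WT array alone left 4 of the 7. At 6 h and 24 h none of the 8 passed in this difference (0.817% and 3.1% of all genes passed; 1 and 0 of the 8 at an unadjusted p under 0.05). Genotype and run cannot be told apart beyond what the WT arrays of each run correct for, and astrocyte markers were at 7.16 to 9.13 on untreated C61A arrays and 4.89 to 5.98 on untreated KO arrays, whose part in the result was not tested.

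C61A cells responded to interferon. At 24 h 7 of the 8 rose (5.46% of all genes rose), with a median of 2.42 against -0.12 over all genes, and every treated array lay above every untreated array for all 8, as for 21.7% of all genes. Tap1 went from 7.30 and 6.4 to 10.91 and 9.96 (3.59 ± 0.80, adjusted p = 0.0165). Psmb9 went from 8.34 and 7.61 to 10.86 and 10.99 (2.95 ± 0.56, adjusted p = 0.00918). H2-M3 went from 7.75 and 7.44 to 10.35 and 10.01 (2.59 ± 0.31, adjusted p = 0.00192) and was the gene whose call held when any single C61A array was left out. Tap2 went from 7.23 and 6.77 to 10.01 and 8.89 (2.45 ± 0.55, adjusted p = 0.0172), and Tapbp from 10.15 and 9.73 to 12.36 and 11.62 (2.05 ± 0.41, adjusted p = 0.0108). Replicate 1 at 24 h was the higher one for Tap1, Tap2, Tapbp and H2-M3. Without C61A 24 h replicate 1 or C61A 0 h replicate 2 1 of the 8 passed, and without C61A 24 h replicate 2 3 passed. B2m read 13.15 and 12.83 at 0 h and 13.59 and 13.38 at 24 h and did not pass (0.49 ± 0.15, adjusted p = 0.0603). In a fit on the arrays of the C61A run alone 1 of the 8, H2-M3, passed, and no share of all genes is given for it. In the fit without the arrays that stand apart all 8 rose (8.08% of all genes rose).

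At 6 h none of the 8 passed in C61A cells (0.0503% of all genes passed; 5 of the 8 at an unadjusted p under 0.05). The replicates differed: Tap1 read 10.22 and 8.04 and Psmb10 11.74 and 9.74, the lower value being on the array with the low Usp18. Without it 7 of the 8 rose (4.33% of all genes rose), Tap1 by 3.37 ± 0.43 (adjusted p = 0.00031), Psmb9 by 2.68 ± 0.31 (adjusted p = 0.000143) and Tap2 by 2.00 ± 0.40 (adjusted p = 0.00886), with B2m at 0.28 ± 0.18 as the exception. Astrocyte markers were at 8.67 on the first C61A array at 6 h and at 5.97 on the one that stands apart, against 9.13 and 7.16 at 0 h, and their part in the result was not tested. The responses of C61A and WT cells did not differ for any of the 8 at 6 h (0% of all genes; 0 of the 8 at an unadjusted p under 0.05) or at 24 h (0% of all genes; 3 of the 8). Without WT 0 h replicate 2, 2 of the 8 passed at 24 h. Without the arrays that stand apart none passed, with differences at 24 h from -0.03 ± 0.24 (B2m) to 0.95 ± 0.52 (Tap2).

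**Figure D2:**
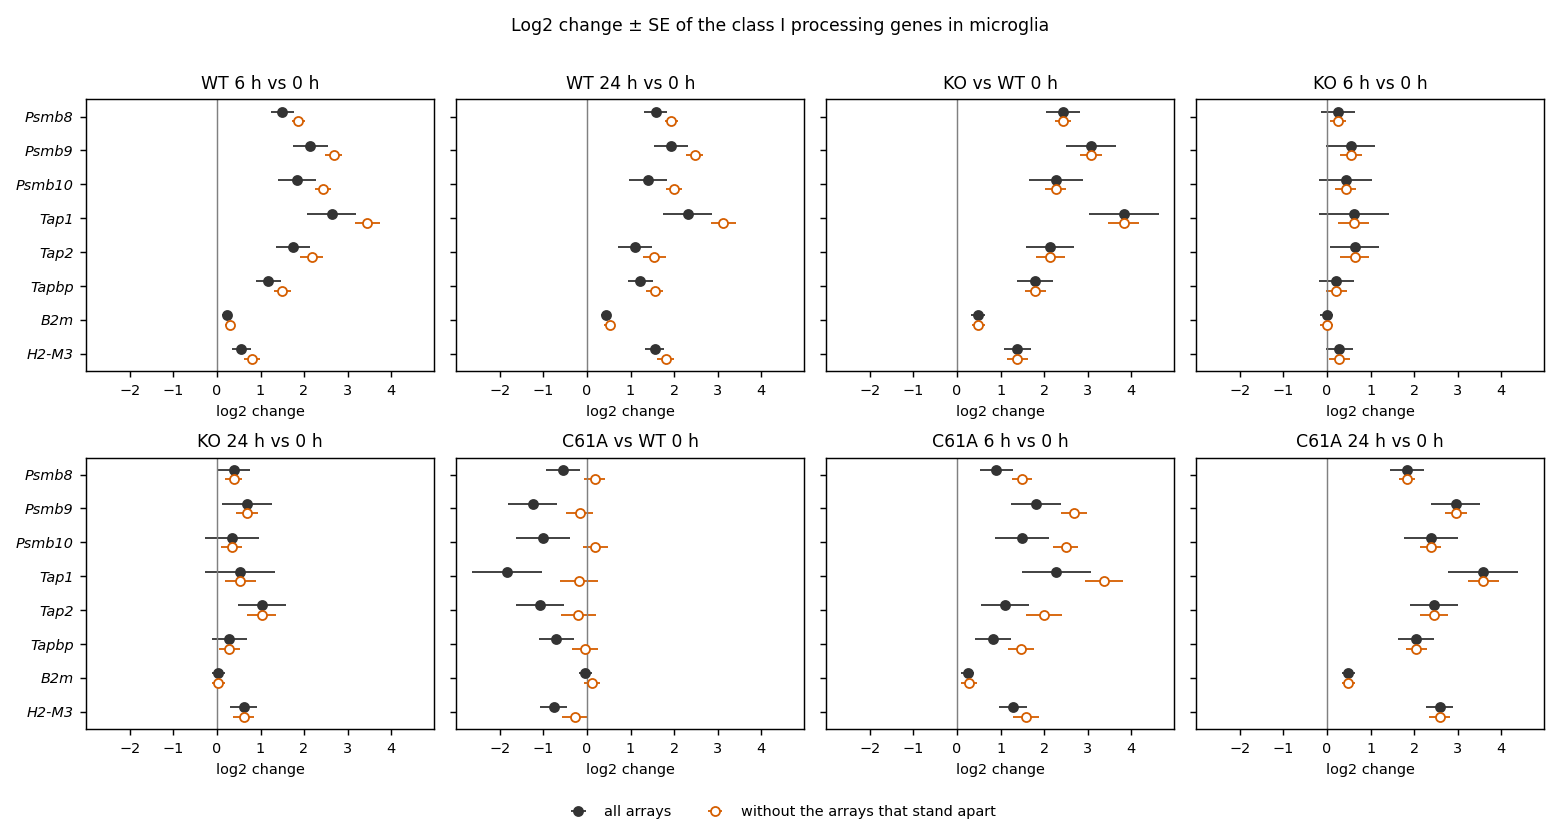
Log2 change ± SE (horizontal axis) of the 8 genes in 8 microglia comparisons, from the fit with all arrays (filled) and from the fit without the arrays that stand apart (open). KO against WT at 0 h has changes from 0.48 (B2m) to 3.82 (Tap1) in both fits, and the KO responses at 24 h run from 0.03 (B2m) to 1.03 (Tap2). The C61A response at 6 h is larger without the array that stands apart (Tap1 3.37 against 2.28).

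In BV-2 cells interferon raised 7 of the 8 genes after 24 h with the Usp18 siRNA, while none passed then with control siRNA. The difference of these responses passed for none of the 8. Between the siRNAs Psmb9 and Tap2 passed at 24 h. With control siRNA 2 of the 8 passed at 6 h, Psmb9 (1.44 ± 0.23, adjusted p = 0.0269) and Tap2 (0.95 ± 0.16, adjusted p = 0.0287), where 0.991% of the 7163 genes tested rose, and none passed at 24 h (0.503% of all genes passed; 7 of the 8 at an unadjusted p under 0.05). Psmb9 read 8.29 and 8.41 at 0 h, 9.62 and 9.96 at 6 h and 9.53 and 9.70 at 24 h. Tap2 read 6.99 and 6.64, then 7.80 and 7.72, then 7.33 and 7.33. All treated control arrays lay above the untreated ones for these genes, with Tap2 lower at 24 h than at 6 h on both arrays. The control means of all 8 genes were higher at 24 h than at 0 h, Tap1 by 1.36, Psmb9 by 1.26, Tapbp by 1.19 and Psmb10 by 1.16. With culture as a random block in limma, Psmb8, Psmb9, Tap1 and Tapbp passed there (adjusted p from 0.00576 to 0.0409). A response to interferon with control siRNA at 24 h is thus not excluded. Both calls at 6 h were lost when any one of the 4 arrays was left out.

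With the Usp18 siRNA the same 2 genes, Psmb9 and Tap2, passed at 6 h (1.02% of all genes rose), and neither did without the array of that group that carries genes of primary microglia (0.0422% of all genes passed; Psmb9 1.33 ± 0.29, adjusted p = 0.107). Without replicate 1 or replicate 2 at 0 h the count was also 0. At 24 h 7 of the 8 rose (6.62% of all genes rose), with a median of 1.80 against -0.11 over all genes. Psmb9 went from 8.75 and 9.14 to 10.68 and 11.29 (2.04 ± 0.23, adjusted p = 0.00253). Tap1 went from 8.05 and 8.81 to 10.01 and 11.06 (2.10 ± 0.36, adjusted p = 0.00965). Tap2 went from 7.10 and 7.13 to 9.02 and 9.15 (1.97 ± 0.16, adjusted p = 0.000446). The spread between the treated arrays was wide for Tap1 and narrow for Tap2. Tapbp went from 9.66 and 10.26 to 11.43 and 11.85 (1.68 ± 0.24, adjusted p = 0.00543), and Psmb10 from 8.96 and 9.76 to 10.84 and 11.75 (1.93 ± 0.42, adjusted p = 0.0200). H2-M3 went from 8.21 and 8.45 to 9.15 and 10.58 (1.53 ± 0.38, adjusted p = 0.0289), the widest spread of the 8 at 24 h. B2m, read in BV-2 cells through its other probe set, went from 13.14 and 13.26 to 13.42 and 13.44 and did not pass (adjusted p = 0.244). Every treated array lay above every untreated one for all 8, as for 25% of all genes. Without Usp18 siRNA 0 h replicate 1 the count fell to 2 (Psmb9 and Tap2), without 24 h replicate 2 to 3.

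Between the siRNAs, no gene of the 8 passed at 0 h (0% of all genes; 2 of the 8 at an unadjusted p under 0.05) or at 6 h (0% of all genes; 2 of the 8). At 24 h Tap2 was higher with the Usp18 siRNA, at 9.02 and 9.15 against 7.33 and 7.33 (1.75 ± 0.16, adjusted p = 0.00202), and so was Psmb9, at 10.68 and 11.29 against 9.53 and 9.70 (1.37 ± 0.23, adjusted p = 0.0225), where 3.07% of all genes rose. All 8 genes had both Usp18 siRNA arrays above both control arrays at 24 h, as 26.2% of all genes had. Tap2 passed whichever single array was left out. The count was 1 without Usp18 siRNA replicate 2 or either control array and 6 without Usp18 siRNA replicate 1. The difference of the responses passed for none of the 8 at 6 h (0% of all genes; 0 of the 8 at an unadjusted p under 0.05) or 24 h (0.0279% of all genes; 2 of the 8), with Tap2 nearest at 24 h (1.45 ± 0.22, adjusted p = 0.126). Without Usp18 siRNA 24 h replicate 1, 2 of the 8 passed at 24 h. Granulocyte and monocyte markers read 6.37 and 5.10 on the Usp18 siRNA arrays at 24 h and 4.80 and 4.63 on the control arrays. Of this list Plac8 alone was higher on both, at 8.71 and 5.42 against 3.45 and 3.51. S100a8, above the array median on all 12 BV-2 arrays, read 6.30 and 6.14 against 7.09 and 6.23. S100a9 read 4.09 and 3.74 against 3.85 and 4.15. The part of this list in the result was not tested.

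**Figure D3:**
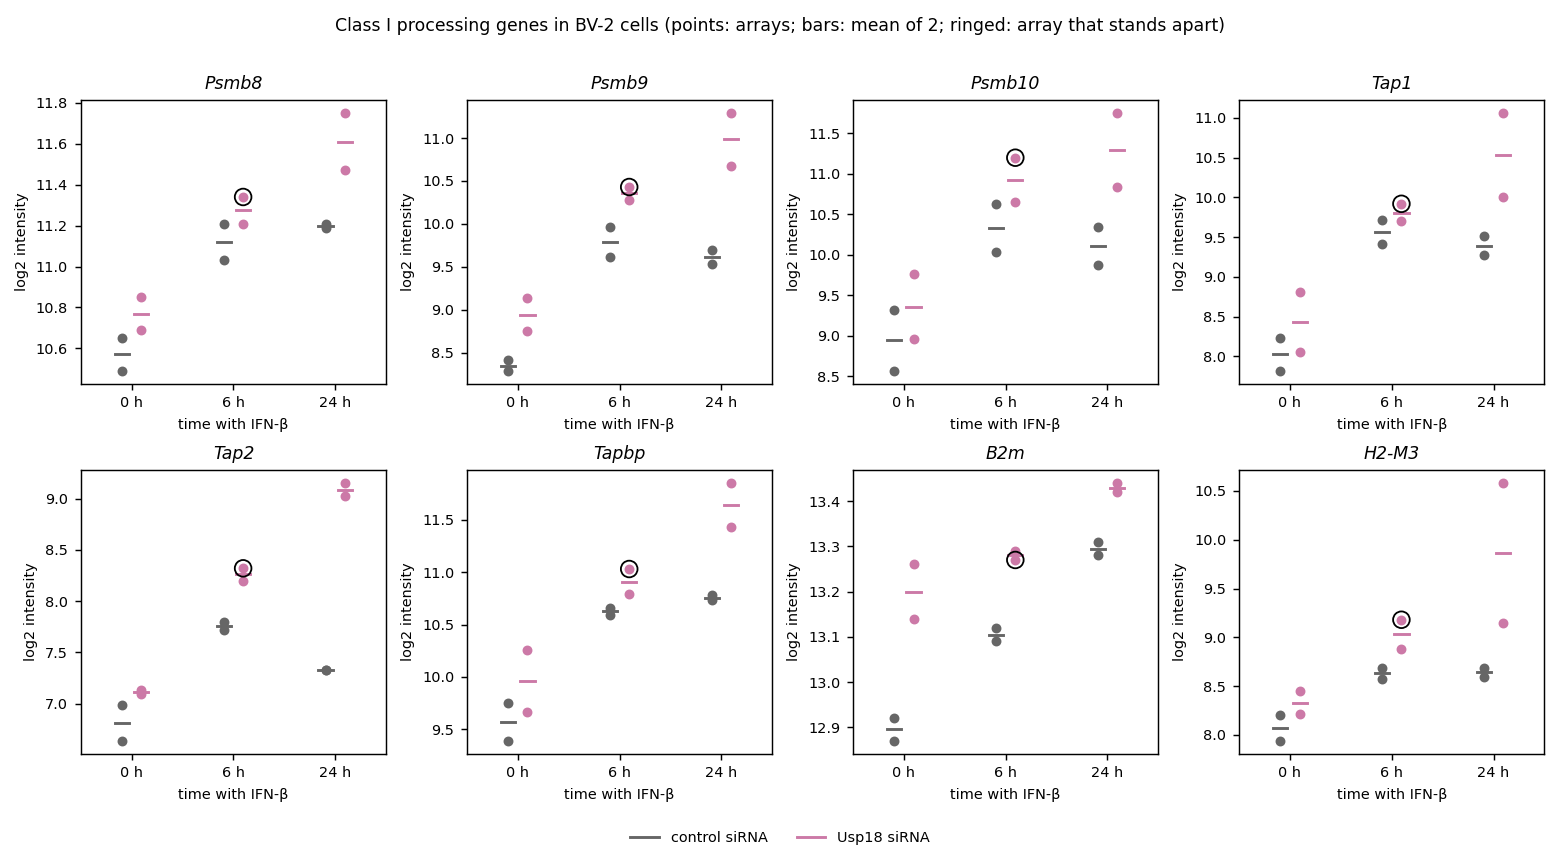
Log2 intensity of the 8 genes in BV-2 cells by time with IFN-b, for control siRNA and Usp18 siRNA. Each point is 1 array, each bar the mean of 2, and the ring marks the array that stands apart. At 24 h the Usp18 siRNA arrays lie above the control arrays in every panel, for Tap2 at 9.02 and 9.15 against 7.33 and 7.33.

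The constitutive subunits that the immunoproteasome subunits replace did not pass the test in any of the comparisons made. Between untreated KO and WT cells Psmb5 differed by -0.03 ± 0.20, Psmb6 by 0.34 ± 0.19 and Psmb7 by 0.20 ± 0.21. Over 24 h of interferon with the Usp18 siRNA in BV-2 cells they changed by -0.31 ± 0.13, 0.00 ± 0.16 and -0.12 ± 0.16. The induced subunits at the same sites rose by 0.84 ± 0.16 (Psmb8), 2.04 ± 0.23 (Psmb9) and 1.93 ± 0.42 (Psmb10) in that comparison. A small change of the constitutive subunits is not excluded by these standard errors.

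**Figure D4:**
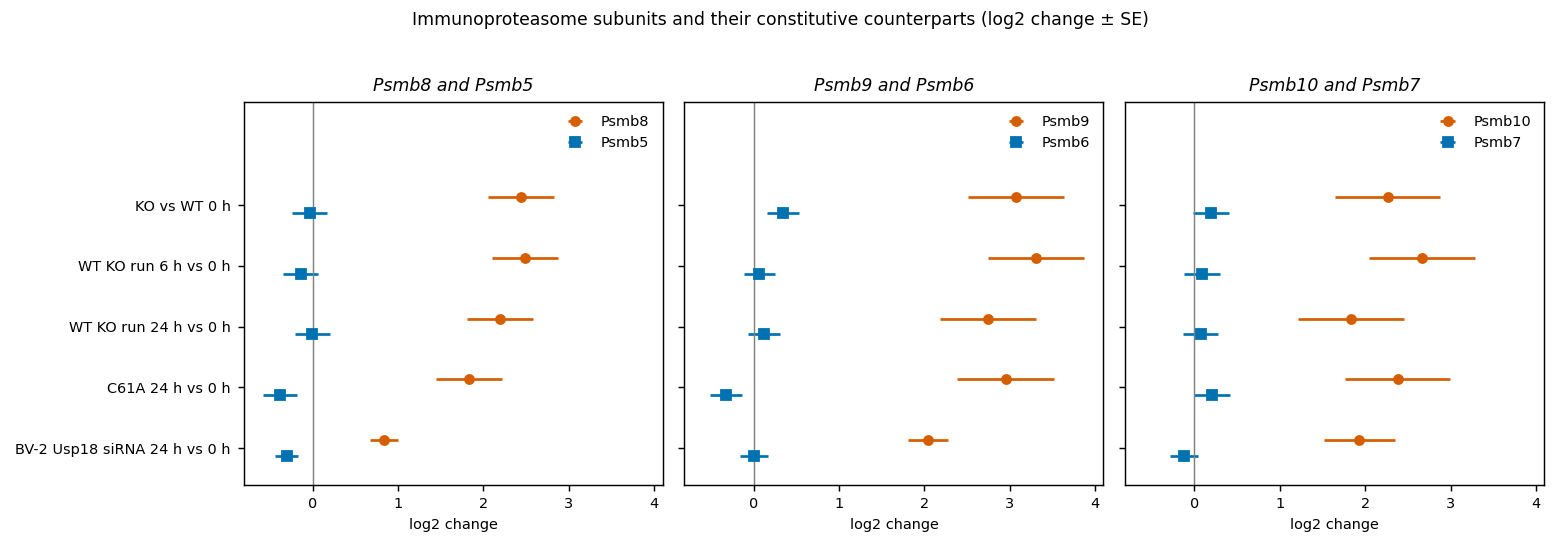
Log2 change ± SE of each immunoproteasome subunit (circles) and of the constitutive subunit it replaces (squares) in 5 comparisons. Psmb8, Psmb9 and Psmb10 lie between 0.84 and 3.31, and Psmb5, Psmb6 and Psmb7 between -0.38 and 0.34.

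Other genes of the pathway were taken from a list of 36, of which 24 were on the array and 18 passed the filter on dim probe sets. Between untreated KO and WT cells 6 of the 18 rose and 1 fell (8% and 8.78% of all genes), with a median of 0.49. H2-T24, a non-classical class I gene, rose by 4.15 ± 0.98, the transcription factor Irf1 by 2.72 ± 0.59, the peptide editor Tapbpl by 2.09 ± 0.66 and Psme1, a subunit of the proteasome activator, by 1.80 ± 0.31. Erap1, which trims peptides in the endoplasmic reticulum, rose by 1.46 ± 0.35 and the classical heavy chain H2-K1 by 0.62 ± 0.18, while Rfxap, part of a promoter-binding complex of MHC genes, fell by 0.54. After 24 h of interferon in WT cells 5 of the 18 rose (2.02% of all genes rose), with a median of 0.24: H2-T24 by 3.40 ± 0.69, Psme1 by 1.19 ± 0.22, Erap1 by 1.09 ± 0.25, H2-K1 by 0.86 ± 0.13 and H2-D1 by 0.79 ± 0.15. The general chaperones of the endoplasmic reticulum on the list (Calr, Canx, Pdia3 and Hspa5) passed in neither comparison. Class I heavy chain genes are close copies of each other, and the share of a neighbour's RNA in a heavy chain probe set is uncertain.

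The levels of the 8 genes were ordered over the 12 microglia groups. KO cells at 6 h or 24 h held the highest mean for every gene but B2m, whose highest mean was in C61A cells at 24 h. Untreated WT of the KO run or untreated C61A cells held the lowest. The group means ranged over 4.57 log2 units for Tap1, 4.16 for Psmb9, 3.43 for H2-M3 and 3.17 for Tap2, over 3.05 for Psmb10, 2.82 for Psmb8 and 2.64 for Tapbp, and over 0.62 for B2m. Many neighbours in these orders overlapped: of the 11 pairs of neighbouring groups, the arrays stood apart in 4 for Psmb8 and Psmb9, 5 for Psmb10 and H2-M3, 2 for Tap1 and Tap2, 4 for Tapbp and 1 for B2m. In BV-2 cells the order ran from untreated control siRNA (lowest) to Usp18 siRNA at 24 h (highest) for all 8 genes.

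Across the 12 group means the 8 genes moved together. Pearson's r between pairs of them ran from 0.753 (Tap2 and H2-M3) to 0.990 (Psmb10 and Tap1), and every pair below 0.9 included B2m or H2-M3. Genes outside the 8 were also searched for group means like the average of the 8. The list of other pathway genes and the constitutive subunits were left out of that search. Of the rest, the most alike were Stat2 (r = 0.994), Epsti1 (0.991), Uba7 (0.989), Irf7 (0.987), Trim30d (0.987) and Mov10 (0.984). These groups share arrays of the same cultures and interferon times, and the values are descriptions.

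Between untreated KO and WT cells the kept probe sets of the same gene differed in the same direction. Tapbp has a second probe set that rose by 1.95 ± 0.57 between untreated WT and KO cells (adjusted p = 0.0348), beside 1.79 ± 0.41 for the one reported. B2m has a second one that rose by 0.61 ± 0.15 (adjusted p = 0.0141), beside 0.48 ± 0.16 (adjusted p = 0.0517) when each probe set was tested on its own. Tap1 has 4, of which 2 lay below the array median on all 36 arrays and 1 was dim (above the median on 7 of 24 microglia arrays). The dim one gave 1.00 ± 0.43 (adjusted p = 0.125), against 3.82 ± 0.80 for the one reported.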

How the data were processed

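The deposited table holds log2 intensities of 22690 probe sets on 36 arrays (24 of microglia, 12 of BV-2 cells). RNA was isolated with a column kit and labelled with biotin by one-cycle amplification from the 3′ end, per the labels' protocols. The authors used affy, per the submitters' processing notes. The summary method, the normalization and the base of the logarithm were not given in the sources used here. Base 2 was read from the range of the deposited values (1.66 to 14.03). Array medians lay between 5.59 and 5.83, no 2 arrays were copies (highest correlation 0.995), and the values were used as deposited. If arrays were made alike in overall level before deposit, a change of most genes in one direction would not be seen, and bright probe sets may be compressed.

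Probe sets were named through the platform annotation: 20393 had 1 gene, 691 had several or none and 1606 were not listed there. A probe set was kept where it lay above the array median on at least 2 arrays of a fit, and the brightest kept one stood for its gene (7960 genes in microglia, 7163 in BV-2 cells). Group means were fitted with limma 3.58.1 in R 4.3.3, once for the microglia arrays and once for the BV-2 arrays (12 and 6 residual degrees of freedom before moderation), with variances moderated by eBayes and p-values adjusted by Benjamini-Hochberg over the genes of the fit. Intervals are 95% intervals of the fit and cover the spread between arrays. Nothing in the sources says that the replicates came from separate animals, so p-values measure the spread between these samples. The number of arrays limits the precision.

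The genes, the lists of other pathway genes and of cell markers, and the tests were chosen with earlier results of these data known. Outside the 8 genes, those named are members of these lists or the 6 genes most like the mean of the 8 over microglia groups. The other pathway genes and the constitutive subunits were left out before these 6 were picked. Same-numbered WT arrays deviated together over time (correlations of 0.430 to 0.675 in the KO run and 0.292 to 0.498 in the C61A run), so WT numbers were taken to pair times. Numbers of different genotypes showed no positive correlation (-0.439 to -0.0154), the lowest being between C61A and WT of its run at 6 h. Alternatives were other filters, probe set rules and scalings, the replicate block, the arrays of 1 run, the fit without the 3 arrays that stand apart, and leaving out each array. The fits on WT arrays of 1 run were added after the data had been seen. Promoter motifs were searched with Python 3.11.15.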

Additional observations from a re-analysis of the deposited data

Results flagged for a closer look

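The effect of KO and that of C61A on untreated cells, each against its own WT arrays, differed by limma's test of the difference for 7 of the 8 genes: by 5.66 for Tap1, 4.32 for Psmb9, 3.27 for Psmb10, 3.21 for Tap2, 2.98 for Psmb8, 2.49 for Tapbp and 2.15 for H2-M3 (log2). Over the 4 WT arrays of a time, 24 sets of values were examined for an array far from the others by Dixon's criterion, and 3 were found. Chance alone marks about 1 in 20 such sets. Psmb8 was at 11.30 and Tap1 at 10.33 on WT 0 h replicate 1 of the C61A run, high against the other untreated WT arrays. Tap2 was at 9.03 on WT 24 h replicate 1 of the C61A run, high against the other WT arrays at 24 h.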

How the results depend on the processing

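All counts here are of the 8 genes that passed, and the cause of each change was not tested. Where no share of all genes is given above for a fit, its counts cannot be set against that share. With WT arrays of the C61A run alone, the WT counts of 6 at 6 h, 6 at 24 h and 1 between 6 h and 24 h all became 0, and with those of the KO run alone the count at 24 h became 3. With only the arrays of a run in the fit, KO against WT at 24 h went from 1 to 6, KO at 24 h against 0 h from 0 to 1, the KO minus WT response from 0 to 6 at 6 h and from 0 to 5 at 24 h, and C61A at 24 h from 7 to 1. Without the 3 arrays that stand apart, KO against WT at 24 h went from 1 to 5, the KO minus WT response from 0 to 6 at 6 h and to 4 at 24 h, C61A at 6 h from 0 to 7, and BV-2 cells with Usp18 siRNA at 6 h from 2 to 0. The microglia arrays among these 3 were picked by Usp18, a gene raised by interferon, so the microglia counts without them are no independent check. Without the filter on dim probe sets the count of KO against WT at 24 h was 0. With trend and robust moderation that of BV-2 control siRNA at 24 h was 1.

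With culture as a random replicate block, the WT 6 h response between runs went from 0 to 3, the KO minus WT response from 0 to 5 at 6 h and to 1 at 24 h, C61A at 6 h from 0 to 1, BV-2 control siRNA from 2 to 5 at 6 h and from 0 to 4 at 24 h, BV-2 Usp18 siRNA at 6 h from 2 to 6, and the difference of siRNA responses at 24 h from 0 to 1. With the number as a fixed replicate block, those counts were 2 for the WT 6 h response between runs, 2 for the KO minus WT response at 6 h, 1 for C61A at 6 h, 3 for BV-2 control siRNA at 24 h, 6 for BV-2 Usp18 siRNA at 6 h and 1 for the difference of siRNA responses at 24 h. In the same fit, untreated KO against WT at 6 h and the difference of KO and C61A effects at 6 h had 1 each, and Usp18 against control siRNA at 24 h had 6. The block moved no other count by more than 1.5 times. The blocked fits kept all arrays, those that stand apart among them. Over time, same-numbered arrays also correlated in KO (0.684 to 0.811), C61A (0.519 to 0.634) and BV-2 cells (0.295 to 0.738), and across the BV-2 siRNAs (0.274 to 0.472). WT has 4 numbers over both runs and these arms have 2 each, so their blocked counts are given only here. Except for BV-2 control siRNA at 24 h, the results of these arms given above take no account of these correlations.

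Leaving out 1 array at a time, the counts ranged from 3 to 7 for WT at 6 h, from 2 to 8 at 24 h, from 0 to 1 between 6 h and 24 h and from 0 to 5 for the WT 6 h response between runs. They ranged from 1 to 6 for KO against WT at 0 h and from 0 to 1 at 6 h, and were 0 at 24 h. They ranged from 0 to 2 for C61A against WT at 0 h, from 1 to 5 for C61A at 24 h, from 0 to 2 for the C61A minus WT response at 24 h and from 4 to 7 for the difference of KO and C61A effects at 0 h. In BV-2 cells they were 0 for control siRNA at 6 h, from 0 to 3 for Usp18 siRNA at 6 h, from 2 to 7 at 24 h, from 1 to 6 for Usp18 against control siRNA at 24 h and from 0 to 2 for the difference of responses at 24 h. Centring each array, quantile normalization again, a stricter filter, the mean of probe sets and every probe set on its own moved no count by more than 1.5 times. Of 4320 recomputed values, no call was reversed, and 125 values that passed nowhere changed sign.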
